A study of Homo sapiens with 6 samples.

Results

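Azurophil granules are the primary granules of neutrophils, and their proteins are made at the promyelocyte stage of granulocyte development, so their transcripts are not usual in a B-cell line. The 10 genes described here were taken as the rows of the deposited table whose symbol equals CTSG, PRTN3, ELANE, AZU1, MPO, LYZ, RNASE2, RNASE3, CST7 or SRGN, and each symbol had 1 row among 58273. They were chosen by their FPKM (fragments per kilobase of transcript per 1e06 fragments) in these same 6 libraries, as granule genes found at high level in a B-cell line, so the levels are a description and carry no test. RNA-seq was performed on cells labelled Daudi, a line established from a Burkitt lymphoma, in 3 libraries of cells carrying shENO1, a hairpin RNA that targets the glycolytic enzyme gene ENO1, and in 3 of wild type cells, numbered 1 to 3 in each group. No library was labelled as carrying a control hairpin, and the labels do not say whether the replicates were separate cultures, so a p-value reflects the spread among these libraries and that spread may be technical.

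Within the granule the members have different roles. CTSG (cathepsin G), PRTN3 (proteinase 3) and ELANE (neutrophil elastase) are serine proteases, and AZU1 (azurocidin) is their catalytically inactive, antimicrobial relative. MPO makes hypochlorous acid from hydrogen peroxide, and LYZ (lysozyme) cleaves bacterial cell walls and is found in every type of neutrophil granule. RNASE2 and RNASE3 are the eosinophil-derived neurotoxin and the eosinophil cationic protein, ribonucleases best known from eosinophil granules. CST7 (cystatin F) inhibits cathepsin C, the enzyme that activates the serine proteases, and SRGN (serglycin) is the proteoglycan core on which granule proteins are packed. CST7 and SRGN are also made by cytotoxic lymphocytes, so the list as a whole does not mark 1 cell type.

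Coordinates are those of GENCODE release 29, build GRCh38. AZU1, PRTN3 and ELANE lie side by side on the plus strand of chromosome 19, at 825097 to 832018, 840960 to 848175 and 851014 to 856247. RNASE3 and RNASE2 lie on the plus strand of chromosome 14, at 20891399 to 20892348 and 20955452 to 20956436, and CTSG lies on the minus strand of the same chromosome at 24573522 to 24576260. MPO is on chromosome 17 (58269856 to 58280935, minus strand), LYZ on chromosome 12 (69348341 to 69354234, plus strand), CST7 on chromosome 20 (24949230 to 24959928, plus strand) and SRGN on chromosome 10 (69088106 to 69104811, plus strand).

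The sequence just before the start site is shown for the 5 members matched in the RefSeq promoter table (GRCh38.p14), because AZU1 and PRTN3 are neighbours with unequal levels and RNASE2 and RNASE3 are neighbours with like levels. Each stretch is the 160 bases before the RefSeq start, which differs from the outer GENCODE start given above, so that the AZU1 stretch lies inside the GENCODE gene and the CTSG, PRTN3 and RNASE2 stretches run past the GENCODE start. The stretches are written 5′ to 3′ on the strand of the gene. The positions are chr14:24576251-24576410 (minus strand) for CTSG, chr19:827677-827836 for AZU1, chr19:840839-840998 for PRTN3, chr14:20955327-20955486 for RNASE2 and chr14:20891225-20891384 for RNASE3. Capitals mark matches, on either strand, to GAGGAA, a core bound by the myeloid factor PU.1, or to TTNNGCAA, letters of the kind bound by C/EBP factors.
CTSG: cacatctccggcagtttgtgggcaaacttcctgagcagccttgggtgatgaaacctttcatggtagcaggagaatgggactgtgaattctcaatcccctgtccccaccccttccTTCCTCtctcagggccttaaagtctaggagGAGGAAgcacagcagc
AZU1: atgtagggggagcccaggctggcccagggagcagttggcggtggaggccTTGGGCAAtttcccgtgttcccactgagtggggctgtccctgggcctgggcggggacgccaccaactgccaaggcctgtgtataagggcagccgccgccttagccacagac
PRTN3: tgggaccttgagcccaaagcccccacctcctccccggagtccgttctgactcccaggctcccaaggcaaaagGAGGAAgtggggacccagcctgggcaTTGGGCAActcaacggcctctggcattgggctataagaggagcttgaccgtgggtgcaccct
RNASE2: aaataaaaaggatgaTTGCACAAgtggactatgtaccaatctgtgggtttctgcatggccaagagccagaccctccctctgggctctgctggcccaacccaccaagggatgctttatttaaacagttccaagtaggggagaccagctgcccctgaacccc
RNASE3: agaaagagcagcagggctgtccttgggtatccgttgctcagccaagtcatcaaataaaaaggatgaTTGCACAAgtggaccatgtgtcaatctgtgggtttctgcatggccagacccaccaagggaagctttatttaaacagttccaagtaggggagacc

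Over the 250 bases before the start, searched on both strands, TTNNGCAA was matched in 4 of the 5 genes, against 9.05% of 35116 RefSeq promoters of the same length. AZU1 and PRTN3 held the same 8 letters, TTGGGCAA, and RNASE2 and RNASE3 both held TTGCACAA. GAGGAA was matched in 2 of the 5, CTSG and PRTN3, against 23.6% of promoters. AACNG, letters bound by MYB, was matched in 5 of 5, against 70.6% of promoters. TGTGGT, letters bound by RUNX factors, and TATAAA were matched in 0 of 5, against 11.0% and 10.7%. In a local alignment the RNASE2 and RNASE3 windows of 250 bases were identical at 192 of 233 aligned columns, or 82.4%, with 34 columns as gaps. The matches of RNASE2 and RNASE3 are therefore not separate cases in the count of 4 of 5. A match is a string of letters and was not tested as a binding site.

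The targeted gene was looked at first, as a check of the labels. ENO1, on chromosome 1, stood at 212, 242 and 368 FPKM in the shENO1 libraries, against 927, 998 and 1747 FPKM in the wild type libraries. The markers of the labelled cell type were then examined. Of 22 B-lineage genes, 7 were listed at 0 in all 6 libraries, among them CD79B, a subunit of the B-cell receptor, CR2 and POU2AF1, and 11 stayed under 1 FPKM in every library. MS4A1, which encodes CD20, reached at most 0.101 FPKM and IGHM, the immunoglobulin mu chain, at most 0.0475 FPKM. PAX5, a transcription factor of B-cell identity, was at 2.47 to 4.49 FPKM. By mean level the 3 highest genes of the list were BCL6 at 5.39 to 29.7 FPKM, CD22 at 3.18 to 5.10 FPKM and EBF1 at 3.38 to 5.26 FPKM. The B-lineage genes together summed to 29.4 to 55.1 FPKM in the shENO1 libraries and 28.7 to 55.4 FPKM in the wild type libraries. The 10 azurophil granule genes together held 1201, 1765 and 2108 FPKM in shENO1 replicates 1 to 3, against 1025, 1714 and 2024 FPKM in wild type replicates 1 to 3. Those 10 genes were chosen in view of their levels in these libraries, so their sum was not used to judge the cell type. Judged by the B-lineage genes alone, the labelled cell type and its defining markers did not match in any of the libraries. The cells are called here by their label only.

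**Figure D1:**
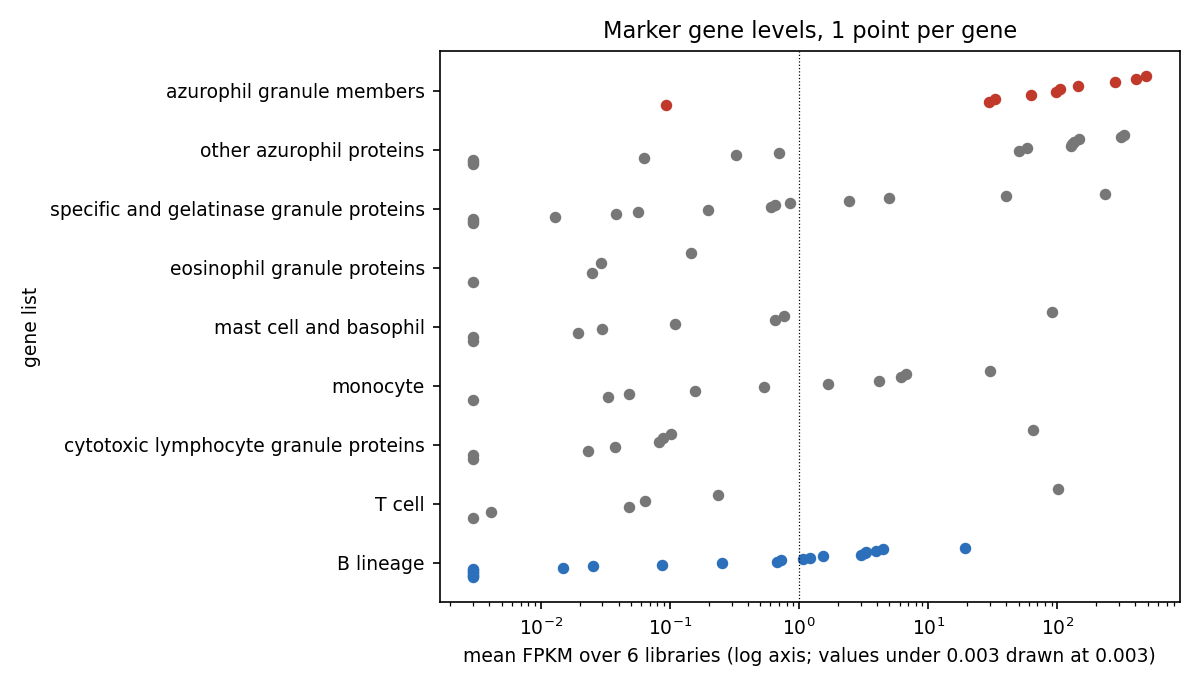
Mean FPKM over the 6 libraries on a log axis, with 1 point for each gene and 1 row for each gene list. Of the 10 azurophil granule genes 9 lie above 10 FPKM and MPO lies near 0.1 FPKM, while the B-lineage genes lie at or below 19.1 FPKM, and the 7 at 0 in every library are drawn at the left edge.

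Among the serine proteases, CTSG was the most abundant. CTSG was at 274, 500.3 and 436 FPKM in shENO1 replicates 1 to 3, against 236, 536 and 431 FPKM in wild type replicates 1 to 3. It ranked between 103 and 247 among 19805 protein-coding genes of a library. The low value of each group was replicate 1 and the high value replicate 2, and the groups overlapped throughout.

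PRTN3 and ELANE were less abundant and close to each other, CTSG standing 9.96 to 18.6 times above ELANE within a library. PRTN3 was at 17.1, 34.1 and 42.9 FPKM in the shENO1 libraries, against 12.9, 34.9 and 36.5 FPKM in the wild type libraries. ELANE was at 14.7, 39.1 and 43.8 FPKM in the shENO1 libraries, against 14.2, 48.4 and 36.8 FPKM in the wild type libraries. Both genes were lowest in the libraries numbered 1, where their levels lay below the median of the protein-coding genes that passed the filter (17.0 to 17.6 FPKM). The ratio of ELANE to PRTN3 stayed between 0.865 and 1.39 over the 6 libraries.

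AZU1, the inactive relative, was at 102, 188 and 124 FPKM in the shENO1 libraries, against 117, 203 and 124 FPKM in the wild type libraries. Replicate 2 was the highest of its group in both, and replicates 1 and 3 were close together. AZU1 therefore did not keep a constant ratio to ELANE, its neighbour, which ran from 2.83 to 8.24 and was highest in the libraries numbered 1.

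MPO stood apart from the proteases. It was at 0.0694, 0.161 and 0.129 FPKM in the shENO1 libraries, against 0.0711, 0.0916 and 0.0410 FPKM in the wild type libraries. It ranked no better than 12759 among the protein-coding genes. MPO was the 1 member that did not pass the filter of 0.5 FPKM in at least 3 libraries, so it entered no test, and no fold change is given for it. Absolute depth is unknown in FPKM, so how many fragments lie behind these values cannot be said.

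LYZ was at 186, 220.0 and 482 FPKM in the shENO1 libraries, against 154, 182 and 461 FPKM in the wild type libraries. Replicate 3 held more than the other 2 replicates of its group in both, by 2.34-fold over replicate 2 on average. SRGN, the most abundant member on average, was at 372, 485 and 664 FPKM in the shENO1 libraries, against 313, 452 and 629 FPKM in the wild type libraries. It also had its highest value in replicate 3 of each group.

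The ribonucleases had like levels. RNASE2 was at 89.3, 113 and 124 FPKM in the shENO1 libraries, against 67.4, 103 and 132 FPKM in the wild type libraries. RNASE3 was at 82.1, 108 and 135 FPKM in the shENO1 libraries, against 55.8, 86.6 and 122 FPKM in the wild type libraries. Both were lowest in replicate 1 and highest in replicate 3 of each group, and the ratio of RNASE3 to RNASE2 ran from 0.829 to 1.09. The transcripts of this pair share sequence, with a longest identical run of 67 bases. Of the 50-base words of RNASE2, 23 of 706 occur in transcripts of another gene, and of RNASE3, 36 of 671. Their separate values are thus less certain than their sum, since reads from the shared stretch can be divided by the estimate. Identical words were 0 for CTSG, PRTN3, ELANE, MPO, CST7 and SRGN, 83 of 1781 for AZU1 and 145 of 1761 for LYZ. None of the other members of the RNase A family came near, as RNASE4 reached at most 3.19 FPKM, ANG 1.42 FPKM and RNASE6 0.606 FPKM.

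CST7, the inhibitor, varied least. It was at 63.7, 77.5 and 56.9 FPKM in the shENO1 libraries, against 54.3, 67.9 and 52.3 FPKM in the wild type libraries. The highest library held 1.48 times the lowest, against 3.40 times for ELANE and 3.32 times for PRTN3. In both groups replicate 2 was the highest and replicate 3 the lowest.

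**Figure D2:**
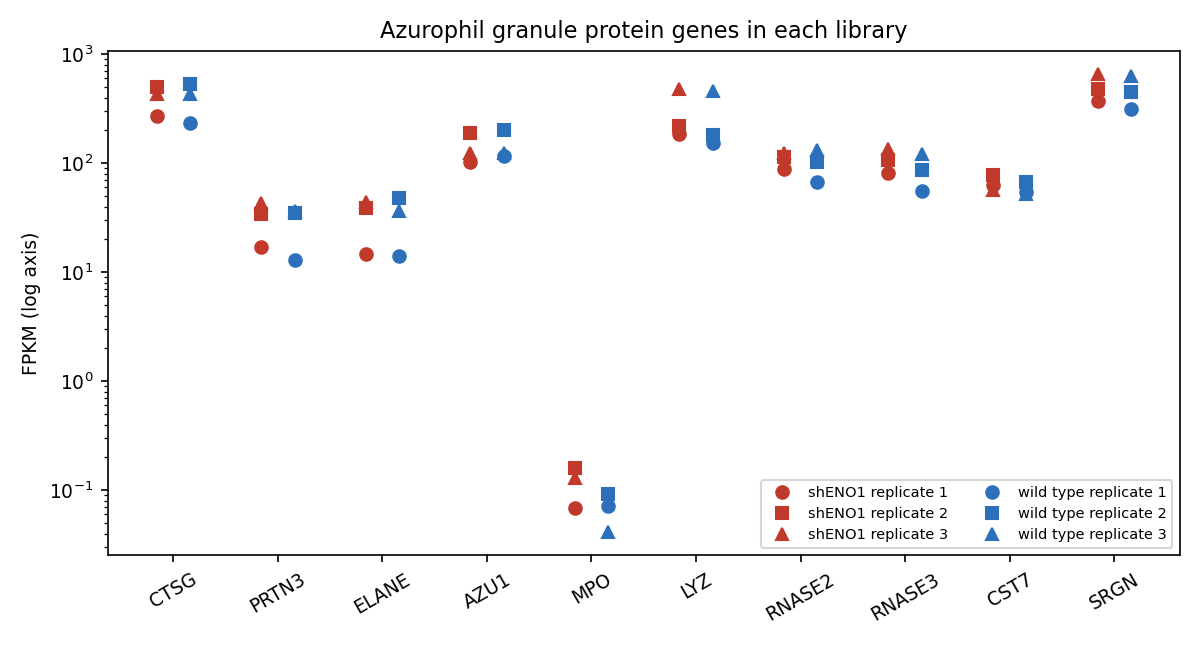
FPKM of the 10 genes on a log axis, with red symbols for shENO1 and blue symbols for wild type and the symbol shape giving the replicate number. For each gene the colours overlap. Symbols of the same shape mostly lie close together, but not for MPO, which in replicate 3 is at 0.129 FPKM in shENO1 and 0.0410 FPKM in wild type. MPO lies at no more than 0.161 FPKM in every library.

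By mean level over the 6 libraries the order was SRGN (486 FPKM), CTSG (402), LYZ (281), AZU1 (143), RNASE2 (105), RNASE3 (98.1), CST7 (62.1), ELANE (32.8), PRTN3 (29.7) and MPO (0.0939). FPKM is scaled by length, so these levels can be set beside each other, though only roughly. AZU1, LYZ, RNASE2 and RNASE3 share sequence with other genes, and the transcript lengths used are not given. Neighbours in this order overlapped over the libraries except PRTN3 and MPO and except CST7 and ELANE, whose ranges were 52.3 to 77.5 and 14.2 to 48.4 FPKM. In bulk RNA, fewer cells of a type and less RNA per cell cannot be told apart, so it is not known whether a level is shared by all cells.

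To examine whether ENO1 knockdown moved these genes, shENO1 was compared with wild type over all 17870 genes that passed the filter, with limma on log2(FPKM + 0.5). A gene was called where the adjusted p was below 0.05 and the log2 fold change exceeded 1 in size. None of the 9 members tested was called, and neither was any other gene (0% of those tested). ENO1 itself, with a log2 fold change of -2.14 (SE 0.29), had a limma adjusted p of 0.518. A fit that does not call the targeted gene cannot show that the members were unmoved. At an unadjusted p under 0.05 there were 0 of 9 members, against 1.98% of the genes tested (353 genes). The groups overlapped for 9 of 9 members, while they did not overlap for 5.99% of the genes tested. The log2 fold change was above 0 for 7 of 9 members, against 49.2% of the genes tested. The median log2 fold change of the 9 members was 0.15, and that of all genes tested was -0.0036. The median of the members was -0.12 without wild type replicate 1 and -0.05 without shENO1 replicate 3, and it reached 0.37 without wild type replicate 3.

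The largest difference was that of RNASE3, at 108 ± 26.4 FPKM in shENO1 and 88.1 ± 33.0 FPKM in wild type (SD, n = 3 each). Its log2 fold change was 0.34 (SE 0.30), with a limma adjusted p of 0.9999 and an exact two-sided permutation p of 0.5. Without wild type replicate 1 it was 0.05, and over the fits that left out 1 library it ran from 0.05 to 0.60. LYZ was at 296 ± 162 FPKM in shENO1 and 266 ± 169.7 FPKM in wild type, with a log2 fold change of 0.20 (SE 0.49). PRTN3 was at 31.3 ± 13.1 and 28.1 ± 13.2 FPKM in shENO1 and wild type, with 0.20 (SE 0.47), and CST7 at 66.0 ± 10.5 and 58.2 ± 8.46 FPKM, with 0.18 (SE 0.17). RNASE2 (0.15, SE 0.25), SRGN (0.14, SE 0.30) and CTSG (0.05, SE 0.34) had smaller log2 fold changes, and those of ELANE (-0.0014, SE 0.54) and AZU1 (-0.10, SE 0.29) were below 0. Each of these differences lay within the spread between replicates. The exact permutation p of the 9 ran from 0.4 to 1, where 0.1 is the smallest that 3 against 3 can give.

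The groups were also compared between libraries of the same number. LYZ, CST7, SRGN and RNASE3 were higher in shENO1 in 3 of 3 same-numbered pairs, or 4 of 9 members, and 14.1% of the genes tested were so. None was lower in 3 of 3 pairs, against 15.8% of the genes tested. The ratio of shENO1 to wild type in pairs 1 to 3 was 1.47, 1.24 and 1.11 for RNASE3, 1.21, 1.21 and 1.04 for LYZ, 1.17, 1.14 and 1.09 for CST7, and 1.19, 1.07 and 1.06 for SRGN. When the replicate number entered the fit as a block, the SE of LYZ was 0.06 and that of RNASE3 was 0.09, and 3 of 9 members had an unadjusted p under 0.05, against 7.55% of the genes tested. After adjustment over all genes 0 of 9 passed, the lowest limma adjusted p being 0.593 for RNASE3, and 0.0056% of the genes tested, ENO1 alone, passed both thresholds.

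**Figure D3:**
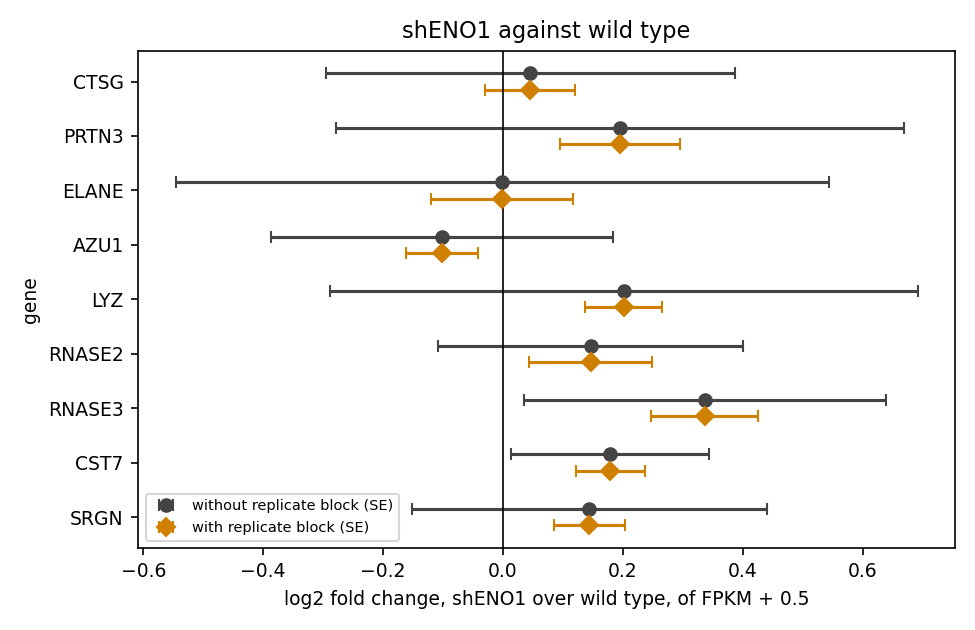
Log2 fold change of shENO1 over wild type on the log2(FPKM + 0.5) scale for the 9 genes tested, with bars of 1 SE (n = 3 each), without and with the replicate number as a block. Without the block 7 of the 9 bars cross 0, those of RNASE3 and CST7 ending just above it, and no gene passed after adjustment in either fit.

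The spread that the knockdown did not account for followed the replicate number. On the log2 scale, the number accounted for 77.8% to 97.6% of the variation of a member over the 6 libraries, and the knockdown for at most 21.0%. The number has more levels than the knockdown and would take a larger share of noise too, so these shares cannot be compared directly. The median share of the number was 95.6% for the 9 members and 69.3% for all genes tested, so a large share was common. An F test for the replicate number, in the limma fit with knockdown and number, called 9 of 9 members at an adjusted p under 0.05, against 18.8% of the genes tested. At an unadjusted p under 0.05 it called 37.2% of the genes tested. The limma adjusted p of the members ran from 0.00976 for LYZ to 0.0359 for RNASE2. With the filter at 1 FPKM the F test called 9 of 9 members, against 23.3% of the genes tested. The share called thus depends on level, and no share among genes of like level was computed. This test was added after the values were seen, and it has 2 residual degrees of freedom. Leaving out a library leaves 1 residual degree of freedom, and a call lost there does not show that the difference is gone. Without shENO1 replicate 3 it called 0 members and 3 genes in all (0.0168%), and without wild type replicate 3 it called 0 members and 1 gene. Without wild type replicate 1 it called 5 of the 9 members (5.13% of genes), CTSG, AZU1, PRTN3, LYZ and SRGN. With both libraries numbered 3 left out it called 0 of 17870 genes. Nothing in the labels ties a number to a shared day, culture or batch.

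The members did not all follow the number in the same way. The libraries numbered 1 were below the other 4 libraries for 7 of 9 members, all but LYZ and CST7, against 11.4% of the genes tested. The libraries numbered 3 were above the other 4 for PRTN3, LYZ, SRGN, RNASE2 and RNASE3, or 5 of 9, against 22.9% of the genes tested. The libraries numbered 2 were above the other 4 for CTSG, AZU1 and CST7, or 3 of 9, against 7.59%. ELANE fell in neither of these last sets, with 39.1 and 48.4 FPKM in replicate 2 and 43.8 and 36.8 FPKM in replicate 3 of shENO1 and wild type. On average the libraries numbered 2 held 3.02 times the ELANE, 2.30 times the PRTN3, 2.03 times the CTSG and 1.78 times the AZU1 of those numbered 1, but 1.18 times the LYZ.

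**Figure D4:**
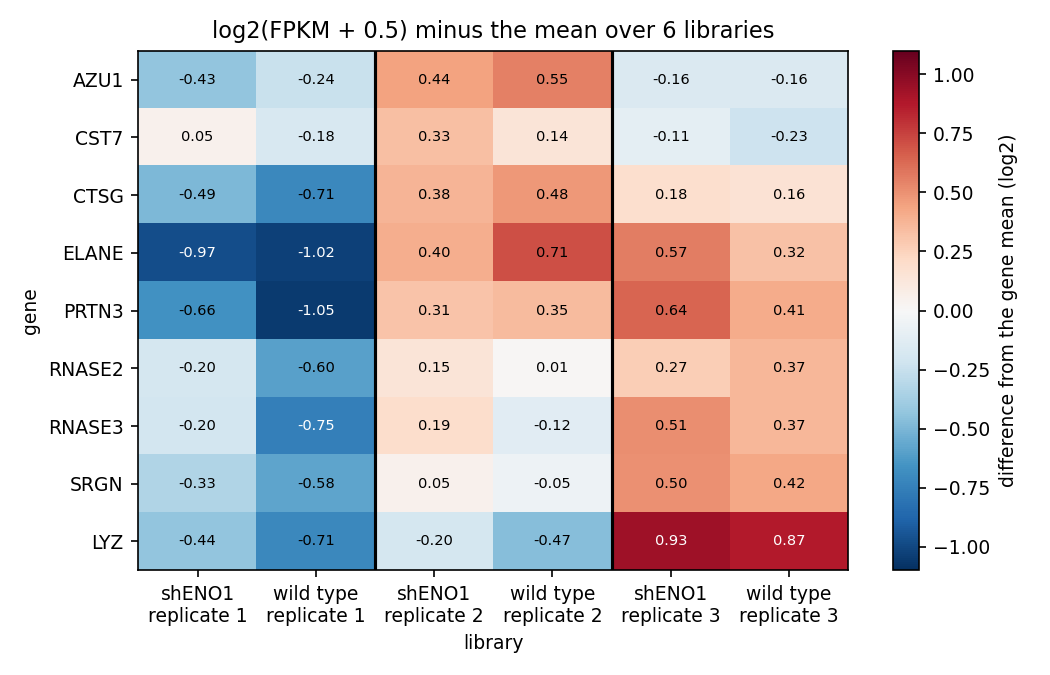
Difference of log2(FPKM + 0.5) from the mean of the gene over 6 libraries, for the 9 genes tested in rows and the libraries in columns, shENO1 left of wild type within each replicate number. The columns of a number look alike, and the libraries numbered 1 are low for ELANE (-0.97 in shENO1 and -1.02 in wild type) while those numbered 3 are high for LYZ (0.93 in shENO1 and 0.87 in wild type).

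Likeness of 2 profiles was measured as the root mean square difference of their centred log2 values over the 6 libraries. SRGN and RNASE3 were the closest pair of members (0.11), followed by SRGN and RNASE2 (0.12), RNASE2 and RNASE3 (0.13) and ELANE and PRTN3 (0.20). AZU1 and LYZ were the farthest apart (0.81). AZU1 was farther from its neighbours ELANE (0.53) and PRTN3 (0.54) than from CST7 (0.27) and CTSG (0.27), which lie on other chromosomes. Among 7836 protein-coding genes with a mean of at least 10 FPKM, the 5 closest to the mean profile of the members were TNFAIP8L2 (0.06), PRR7 (0.08), RIOK1 (0.11), CANT1 (0.12) and TIMM9 (0.13), while the median over these genes was 0.39. These distances rest on 6 libraries that share the replicate structure, and they carry no test.

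Other measures moved with the replicate number too. The FPKM of all protein-coding genes summed to 546243 in shENO1 replicate 3 and 557264 in wild type replicate 3, and to between 494058 and 506356 in the other 4 libraries. When each library was scaled to the same protein-coding sum, 9 of 9 members were still called for the replicate number, against 19.8% of the genes tested. HSPA5, a chaperone of the endoplasmic reticulum, was at 81.8, 103 and 226 FPKM in the shENO1 libraries, against 73.8, 106 and 243 FPKM in the wild type libraries. CALR, a chaperone that MPO binds during its maturation, was at 495, 575 and 1241 FPKM in the shENO1 libraries, against 408, 549 and 1338 FPKM in the wild type libraries. It was thus highest in the same libraries as LYZ and SRGN. The part of either in the member levels was not tested.

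The genes that flank the members differed widely in level. Next to the chromosome 19 cluster, which spans 31151 bases, PLPPR3 at 3120 bases on one side was at 1.34 to 3.11 FPKM and CFD (complement factor D) at 3396 bases on the other side was at 5.41 to 12.5 FPKM. Beside CTSG, CMA1 (mast cell chymase) reached at most 0.177 FPKM and GZMH (granzyme H) at most 0.310 FPKM. RNASE1, on the lower side of RNASE3, reached at most 0.342 FPKM, while METTL17, beyond RNASE2, was at 57.9 to 82.2 FPKM. LPO, the lactoperoxidase gene 1338 bases from MPO, reached at most 0.204 FPKM, and TSPOAP1 on its other side at most 2.70 FPKM. CPSF6 (40.3 to 60.0 FPKM) and YEATS4 (17.7 to 23.2 FPKM) flank LYZ, SYNDIG1 (0 in all libraries) and APMAP (60.8 to 75.4 FPKM) flank CST7, and KIF1BP (5.74 to 9.69 FPKM) and VPS26A (34.9 to 47.8 FPKM) flank SRGN.

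**Figure D5:**
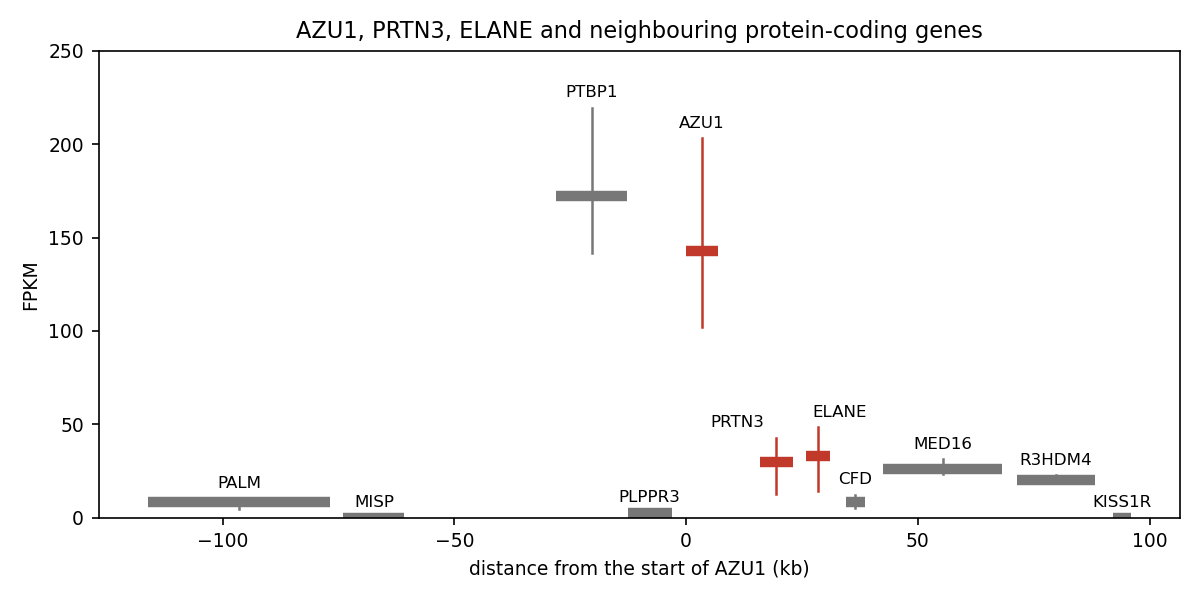
FPKM of AZU1, PRTN3 and ELANE (red) and of the protein-coding genes around them (grey), against distance in kb from the start of AZU1, with a thick bar over the extent of each gene at its mean and a thin line from its lowest to its highest library. AZU1 at 102 to 203 FPKM lies next to PLPPR3 at no more than 3.11 FPKM, and PTBP1, a splicing regulator, lies at 142 to 219.6 FPKM.

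The other azurophil proteins were split as MPO and the proteases were. Of 14 genes, 9 passed the filter and 5 stayed under 1 FPKM in all libraries, and 0 were called in either direction for the knockdown. The lysosomal members were abundant, with CTSD (cathepsin D) at 286 to 381 FPKM, GRN (progranulin) at 221 to 385 FPKM and GUSB (beta-glucuronidase) at 130.0 to 154 FPKM. The defensins DEFA1, DEFA1B and DEFA3, whose near-identical copies make their values uncertain, were listed at 0 in all 6 libraries, BPI (bactericidal/permeability-increasing protein) reached at most 0.539 FPKM and PRSS57, a further granule serine protease, at most 1.32 FPKM.

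Of the 10 genes for activation and inhibition of the proteases, 8 passed the filter and 0 were called in either direction. CTSC, the activating cathepsin C, was at 127 to 176 FPKM, CST3 (cystatin C) at 242 to 375 FPKM and SERPINB1, an inhibitor of all 3 neutrophil serine proteases, at 66.0 to 105 FPKM. SERPINA1 (alpha-1 antitrypsin, the main elastase inhibitor of plasma), picked out here after its values were seen, was the 1 gene among the 8 tested whose groups did not overlap, and 5.99% of all genes tested did not. It was at 3.83, 4.51 and 4.66 FPKM in the shENO1 libraries, against 8.71, 11.0 and 7.15 FPKM in the wild type libraries, with a log2 fold change of -0.95 (SE 0.21) and a limma adjusted p of 0.9999.

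Proteins of the later granules were mostly near 0. Of 14 specific and gelatinase granule genes, 8 stayed under 1 FPKM in all libraries, LTF (lactoferrin) reaching at most 0.199 FPKM and LCN2 at most 0.338 FPKM, and 0 of the 7 that passed the filter were called. The most abundant were CHI3L1 (149 to 324 FPKM) and MMP25 (36.0 to 43.7 FPKM). MMP9 (gelatinase B) was at 1.67, 2.08 and 3.86 FPKM in the shENO1 libraries, against 6.16, 5.67 and 10.2 FPKM in the wild type libraries. Its groups did not overlap, and its log2 fold change was -1.39 (SE 0.33) with a limma adjusted p of 0.9999. All 4 of the other eosinophil granule genes, EPX, PRG2, PRG3 and CLC, reached at most 0.297 FPKM, so RNASE2 and RNASE3 were high without them. Of 8 mast cell genes TPSAB1, whose near-identical paralogues make its value uncertain, was alone in being high (54.4 to 126 FPKM), with KIT at no more than 1.07 FPKM, MS4A2 at no more than 0.925 FPKM and CPA3 at 0. Of 8 cytotoxic lymphocyte genes NKG7 alone was high (59.8 to 76.6 FPKM), with GNLY at no more than 0.264 FPKM, GZMM at no more than 0.296 FPKM and GZMA at 0, while CST7 and SRGN were present. Of 6 T-cell genes CD4, which monocytes also express, was at 87.9 to 124 FPKM, TRAC reached at most 0.578 FPKM and CD3D at most 0.388 FPKM. Of 10 monocyte genes 6 passed the filter, led by CD68 (22.9 to 34.7 FPKM), FCGR1A (3.52 to 11.0 FPKM) and ITGAM (4.67 to 8.16 FPKM), and CD14 reached at most 0.375 FPKM. None of the genes in these lists was called in either direction.

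Genes of a list of myeloid transcription factors were detected in every library, at unequal levels. All 10 of the list passed the filter, and 0 were called for the knockdown. The most abundant were CEBPA at 150.3 to 222 FPKM, MYB at 150.1 to 159.6 FPKM and GFI1 at 95.5 to 129 FPKM. CEBPD (0.801 to 1.30 FPKM) and GATA2 (0.809 to 2.50 FPKM) were low. CEBPE, which is needed for the later granules, was at 6.89 to 12.7 FPKM. Of the 12 genes for maturation of MPO and for haem synthesis, 12 were at or above 10 FPKM in every library, led by CALR, CANX (221 to 379.5 FPKM) and PDIA3 (169 to 336 FPKM), and 0 were called, while MPO itself stayed near 0.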

How the data were processed

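RNA-seq was performed on total RNA with a TruSeq kit, and the authors deposited 1 table of FPKM values made with Cuffnorm. Per the processing notes of the submitters, STAR and Cufflinks were also used, on the human build given as hg38 or GRCh38. The annotation, how Cuffnorm scaled the libraries and whether strand was used are not given in the sources used here. Read counts were not used here. FPKM holds no absolute depth. Low values kept steps of 1 fragment too weakly to rebuild counts, since 11.2% to 15.4% of low genes were no more than 0.02 on the log2 scale from the commonest ratio between libraries.

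All 10 members matched GENCODE release 29 by identifier, version and symbol. The filter for testing was 0.5 FPKM or more in 3 or more of the 6 libraries. Values were transformed as log2(FPKM + 0.5), which understates the change of low genes, and groups were compared by limma (version 3.58.1, R version 4.3.3) with the trend option, two-sided, with Benjamini-Hochberg adjustment over all genes tested. The fits were tested on simulated data. The members, the lists and the tests were chosen with earlier results of these data known.

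After group means were removed, same-numbered libraries correlated across genes at 0.312, 0.176 and 0.491, and other pairs at -0.390 to 0.144, so the replicate block was used as a second fit. The pairing comes from these values and not from the labels. The genes named are the 10 members, ENO1, the 3 most abundant genes of each other list, the genes flanking the members, and the 5 genes closest to their mean profile. Genes named beyond these were chosen after their values were seen, among them the markers of cell types given as absent. Alternatives were other pseudocounts, filters and scalings, library weights, the replicate block, and fits without 1 library or without both libraries numbered 3.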

Additional observations from a re-analysis of the deposited data

How the results depend on the processing

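The number of genes called for the knockdown, 0 without the block, was 1 with the replicate block, 4 with library weights and 2 with both libraries numbered 3 left out, and it was 0 in the 6 fits that left out 1 library. None of the members was called in any of the 16 alternatives, the block included. The median log2 fold change of the members ran from -0.12 to 0.37 in the 6 fits without 1 library, being -0.12 when wild type replicate 1 was left out, -0.05 when shENO1 replicate 3 was and 0.37 when wild type replicate 3 was, so its direction rested on single libraries. Leaving out 1 library turned the direction in at least 1 of 6 fits for each member tested but CST7 and RNASE3 (CTSG -0.30 to 0.30, AZU1 -0.35 to 0.15, ELANE -0.51 to 0.48, PRTN3 -0.28 to 0.58, LYZ -0.21 to 0.69, SRGN -0.11 to 0.39, RNASE2 -0.12 to 0.37), while CST7 ran from 0.06 to 0.29 and RNASE3 from 0.05 to 0.60. The direction of CTSG (-0.11) and PRTN3 (-0.0099) also turned with library weights, and that of ELANE (0.041) when libraries were scaled to equal FPKM totals, a scaling that moves the genes alike and so carries a value next to 0 across it.

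The F test for the replicate number called 0 to 8 of the 9 members in the fits without 1 library, against 0.0056% to 11.3% of the genes tested. With no filter it called 0 members and 0 of 28235 genes, and with both libraries numbered 3 left out it called 0. These last fits have fewer samples or more low genes, and the cause was not tested otherwise. The unknown depth limits what can be said of MPO and of the markers near 0.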
